A study of Mus musculus with 12 samples.

Results

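The tumour necrosis factor (TNF) superfamily and its receptors were followed in 2 myeloid populations of tumour-bearing mice. Members were chosen by symbol: every gene whose symbol starts with Tnfsf or Tnfrsf, together with Tnf, Lta, Ltb, Ltbr, Fas, Fasl, Cd27, Cd40, Cd70 and Eda2r. The rule found 41 of 23479 genes, 16 ligands and 25 receptors. At least 1 read was counted for 40 of the 41, and only Tnfrsf25 had 0 reads in all 12 libraries, where a count of 0 allows up to 3 reads in a library. The minimum for testing, a mean of 10 over the 12 libraries, was met by 24 members, of which 8 were ligands and 16 receptors.

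The cells were monocytic (M-MDSC) and polymorphonuclear (PMN-MDSC) myeloid derived suppressor cells, which are immature monocyte-like and neutrophil-like cells that expand in tumour-bearing hosts and restrain T cells. They were sorted by flow cytometry, at a stated purity above 99%, from the spleens of C57BL/6 mice carrying B16 melanoma. Control mice (Ctrl) bore tumours and were untreated, and lymphodepleted mice (LD) received cyclophosphamide and fludarabine once tumours exceeded 25 mm2. Spleens were taken 7 days after treatment, and every group of this comparison therefore carries a tumour. Each of the 4 groups had 3 libraries of ribosome-depleted total RNA, and 3 mice per treatment are stated. Age, sex and dose were not given in the sources used here. The labels do not tie a library to a mouse, so p-values measure the spread between these libraries.

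Ligands of the family are mostly trimeric membrane proteins that can be shed, as TNF is by the protease ADAM17. Receptors with a death domain recruit adaptors that lead to NF-kappaB activation or to caspase-8 and cell death, whereas receptors without one bind TRAF proteins directly and signal to NF-kappaB and MAP kinases. Decoy receptors bind ligand and carry no functional death domain. In myeloid cells the family is known for TNF signalling through Tnfrsf1a and Tnfrsf1b, for B cell survival factors and for lymphotoxin, and Tnfrsf1b is known to support the survival of myeloid derived suppressor cells.

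Values are the deposited normalized counts, that is reads divided by 1 size factor per library. Library totals, recovered from those values, ranged from 8906045 to 16242926 reads. A log2 difference is on the log2(normalized count + 1) scale from limma over all 12 libraries, is given ± its standard error, and was called at an adjusted p under 0.05 over the 11122 genes tested. Libraries are named by group and number. Summed monocyte markers (8 genes) were 102703 to 121696 in M-MDSC Ctrl, 69553 to 86786 in M-MDSC LD and 8272 to 12597 in PMN-MDSC libraries. Summed neutrophil markers (7 of 8 listed genes were in the table; Ly6g was not) were 389941 to 604953 in PMN-MDSC libraries. In M-MDSC they were 5814 to 6577 in Ctrl, and 38947, 9530 and 16065 in LD 1, 2 and 3. Progenitor markers (8 genes) also stood apart in LD 1, at 7575 in M-MDSC against 1643 and 2120 in LD 2 and 3, and at 989 in PMN-MDSC against 315 and 567; Ctrl libraries of both populations lay between 206 and 309. Summed T cell markers were 51.4 to 174 and B cell markers (10 genes) 132 to 289 in every library. Natural killer cell markers (8 genes) were 52.5 to 140 in M-MDSC and 7.0 to 41.5 in PMN-MDSC. Plasma cell markers (7 genes in the table) were 705 to 1437 and 58.9 to 173, and dendritic cell markers (9 genes) 1030 to 1712 and 2711 to 5573. In PMN-MDSC the dendritic cell sum was mostly Itgax, at means of 5102 in Ctrl and 3334 in LD. Flt3 (means of 310 in M-MDSC Ctrl and 21.6 in PMN-MDSC Ctrl) and Batf3 (146.5 and 13.1) were lower in PMN-MDSC. Clec9a (13.9 and 97.3) was higher there. Macrophage markers (10 genes in the table) were 1398 to 2268. Erythroid markers (9 genes, 6 of them at 0 in all libraries) reached 18.9, melanoma markers (6 genes) 23.8, platelet markers (6 genes) 121 and endothelial and stromal markers (8 genes) 150.

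The family was represented mainly by its receptors. Per kilobase of exon, a scale that allows genes to be compared, the highest mean level in M-MDSC was that of Tnfrsf1b, at 2818 normalized counts per kb in Ctrl and 3181 in LD. Tnfrsf1a followed at 1104 and 1145. In PMN-MDSC the order began with Tnfrsf1a, at 3826 per kb in Ctrl and 3627 in LD. Ltb was the ligand with the highest level per kb there, at 1534 and 2054, and Tnfsf14 the next at 1269 and 916. In M-MDSC no ligand came near these: Tnf, the ligand with the highest level, had 77.1 per kb in Ctrl and 154 in LD.

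**Figure D1:**
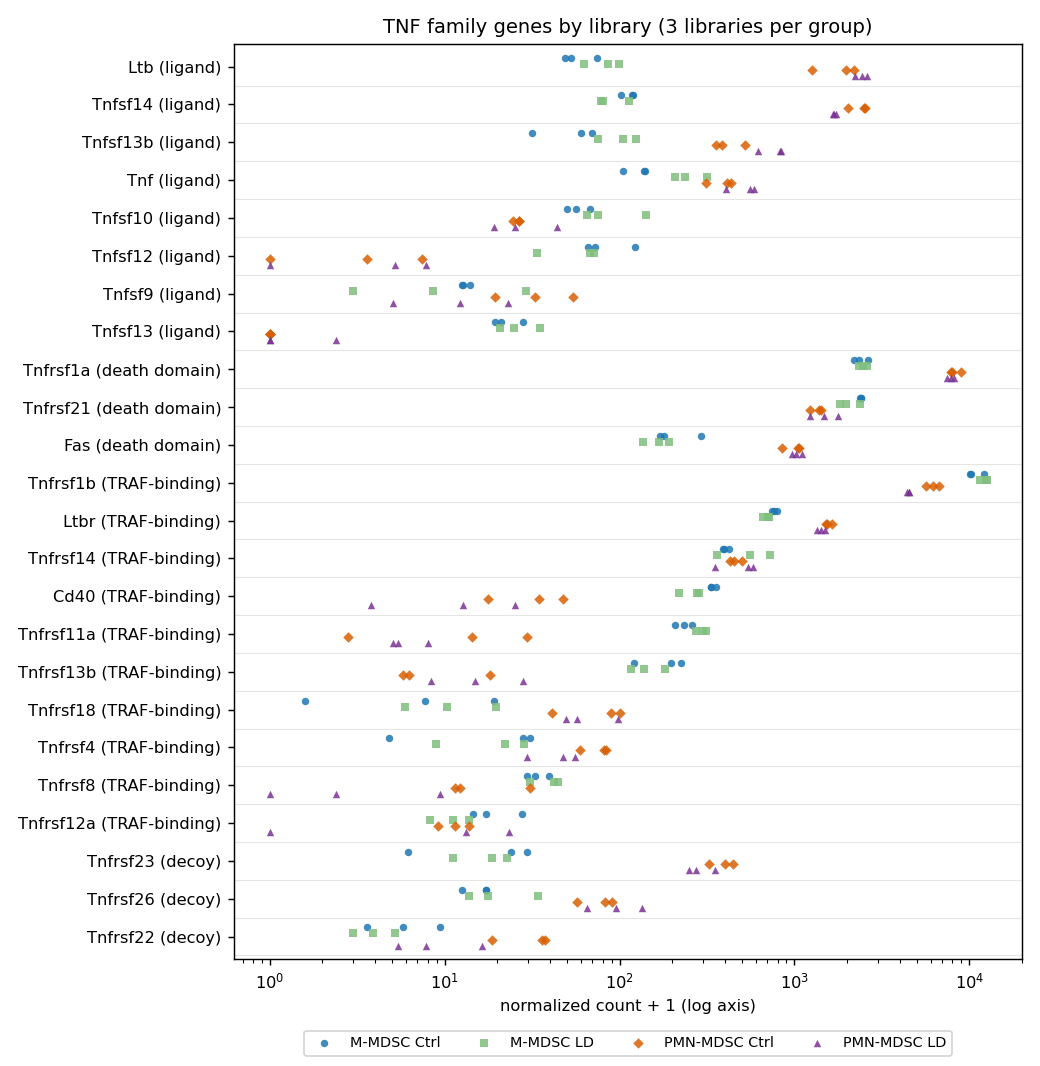
Normalized count + 1 (log axis) of the 24 tested TNF family genes in each of the 12 libraries, with 1 point per library and 1 symbol per group, ordered by role. Ltb, Tnfsf14, Tnfsf13b, Tnfrsf1a, Fas and Tnfrsf23 lie to the right in PMN-MDSC, and Tnfsf12, Tnfsf13, Cd40, Tnfrsf11a and Tnfrsf13b lie to the right in M-MDSC, with no overlap between the populations.

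The comparison of the populations asks which members each cell type carries. In untreated mice 20 of the 24 tested members (83.3%) differed, 8 higher in M-MDSC and 12 higher in PMN-MDSC. Over all genes 75.6% differed, 38.8% higher in M-MDSC and 36.8% higher in PMN-MDSC, so the count of members lies near the background. In lymphodepleted mice 19 of the 24 (79.2%) differed, 9 with more in M-MDSC and 10 with more in PMN-MDSC, against 74.8% of all genes (38.8% and 36.1%). The members' median difference, M-MDSC minus PMN-MDSC, was -1.18 in Ctrl and -0.67 in LD, beside 0.06 and 0.10 over all genes. With Tnfsf13, which had no read in PMN-MDSC Ctrl, at its lower bound, the Ctrl median was also -1.18. The values of the populations did not overlap for 23 of the 24 members in Ctrl and 21 in LD, where 81.0% and 75.2% of all genes tested had groups without overlap. Both comparisons called 18 members, all in the same direction, 8 with more in M-MDSC and 10 with more in PMN-MDSC. Called in Ctrl alone were Tnfrsf4 and Tnfrsf22, in LD alone Tnfrsf8, and in neither Tnfrsf12a, Tnfrsf14 and Tnfsf9. In these sorted cells, fewer cells of a type and less RNA per cell cannot be told apart.

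Among the ligands, 4 were higher in PMN-MDSC and 3 in M-MDSC, in Ctrl and LD alike. Ltb, the membrane subunit of lymphotoxin, and Tnf lie next to each other on chromosome 17, separated by 3.06 kb, with Lta a further 1.16 kb beyond Tnf (GENCODE M21, GRCm38). Both Ltb and Tnf were higher in PMN-MDSC, and their upstream sequences are shown to compare 2 neighbouring ligand genes. RefSeq entries (GRCm38.p6) were found for 32 of the 41 members. The windows start 250 bases before the RefSeq start site and are written 5′ to 3′ on the gene's strand. For Tnf the window is chr17:35202008-35202257 (minus strand), and for Ltb it is chr17:35194257-35194438 (plus strand), which stops where an annotated exon begins. Capitals mark matches on either strand to any of 4 motifs: the NF-kappaB consensus, PU.1 (GAGGAAG), C/EBP (TTNNGNAA) and AP-1 (TGANTCA).
Tnf: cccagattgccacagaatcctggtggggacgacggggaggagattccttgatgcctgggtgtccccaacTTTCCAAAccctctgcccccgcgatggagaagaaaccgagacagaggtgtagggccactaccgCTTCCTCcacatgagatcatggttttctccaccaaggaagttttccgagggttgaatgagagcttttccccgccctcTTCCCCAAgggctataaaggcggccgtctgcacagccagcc
Ltb: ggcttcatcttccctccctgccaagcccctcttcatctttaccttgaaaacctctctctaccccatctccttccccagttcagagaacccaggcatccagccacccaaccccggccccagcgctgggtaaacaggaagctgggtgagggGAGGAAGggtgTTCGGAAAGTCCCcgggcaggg
Counted upstream from the start site, the Tnf window holds a PU.1 match at base 118 and C/EBP matches at 181 and 41. The Ltb window holds a PU.1 match at 101 and an NF-kappaB match at 87 that overlaps a C/EBP match at 90. Of 32851 promoter windows of 250 bases, 3.90% hold the NF-kappaB consensus, 10.6% PU.1, 36.8% C/EBP and 6.75% AP-1. Letters that match a motif are a description of the window and not evidence of binding.

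Ltb had normalized counts of 73.3, 51.7 and 47.7 in M-MDSC Ctrl and 2198, 1964 and 1258 in PMN-MDSC Ctrl. In LD it had 97.8, 62.0 and 84.7 in M-MDSC and 2225, 2612 and 2422 in PMN-MDSC. The populations were far apart in every library, with log2 differences of -4.93 ± 0.22 in Ctrl (limma adjusted p = 6.68e-11) and -4.90 ± 0.22 in LD (9.63e-11). Lta, the soluble lymphotoxin subunit and neighbour of Tnf, had only 8 reads in M-MDSC Ctrl, 8 in PMN-MDSC Ctrl and 0 in both LD groups. Tnfsf14 (LIGHT), a ligand of Ltbr and Tnfrsf14, had 116, 118 and 100 in M-MDSC Ctrl and 2533, 2483 and 2018 in PMN-MDSC Ctrl. It differed by -4.38 ± 0.15 in Ctrl (limma adjusted p = 5.18e-12) and -4.24 ± 0.15 in LD (9.64e-12). Tnf, the name-giving inflammatory cytokine, had 138, 138 and 103 in M-MDSC Ctrl and 408, 435 and 310 in PMN-MDSC Ctrl. The Tnf difference was -1.59 ± 0.21 in Ctrl (limma adjusted p = 6.18e-06) and -1.04 ± 0.21 in LD (3.59e-04). Tnfsf13b (BAFF), a survival factor for B cells, had 30.5, 68.9 and 58.9 in M-MDSC Ctrl and 384, 354 and 520 in PMN-MDSC Ctrl. It differed by -3.03 ± 0.28 in Ctrl (limma adjusted p = 1.88e-07) and -2.92 ± 0.28 in LD (2.84e-07), with no overlap between the populations.

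Tnfsf10, Tnfsf12 and Tnfsf13 were the 3 ligands higher in M-MDSC. Tnfsf10 (TRAIL), a ligand that triggers apoptosis through death receptors, had 55.1, 48.8 and 66.8 in M-MDSC Ctrl and 23.5, 25.5 and 25.5 in PMN-MDSC Ctrl. Its difference was 1.15 ± 0.39 in Ctrl (limma adjusted p = 0.0152) and 1.68 ± 0.39 in LD (0.00132), and in Ctrl it was 1.03 without M-MDSC Ctrl 3, where the call was lost (0.0579). Tnfsf12 (TWEAK), the ligand of Tnfrsf12a, had 71.3, 122 and 65.1 in M-MDSC Ctrl against 0, 2.6 and 6.4 in PMN-MDSC Ctrl. The Tnfsf12 difference was 4.80 ± 0.82 in Ctrl and 4.0 ± 0.82 in LD. It rested on 7 and 8 reads in all of PMN-MDSC Ctrl and LD, and moved to 4.01 without PMN-MDSC Ctrl 1, 5.46 without PMN-MDSC Ctrl 3, 4.59 without PMN-MDSC LD 1 and 3.11 without PMN-MDSC LD 2, called in each case. Tnfsf13 (APRIL), which acts on B cells and plasma cells, had 27.2, 20.1 and 18.5 in M-MDSC Ctrl and no read in PMN-MDSC Ctrl. Against 3 reads per library, the limit that a count of 0 allows, it was at least 6.28-fold higher in M-MDSC Ctrl (limma adjusted p = 1.89e-05). In LD it had 34, 23.8 and 19.7 in M-MDSC and 1 read in all of PMN-MDSC (limma adjusted p = 2.98e-05). Tnfsf12 and Tnfsf13 are neighbours on chromosome 11, 0.47 kb apart, and a read-through gene, Tnfsfm13, which was no row of the table, shares 50.7% of the exonic bases of Tnfsf12. With a further antisense gene the shared portion of Tnfsf13 is 60.0%, so how reads were divided among these genes is uncertain. Tnfsf9, a costimulatory ligand for T cells, ranged from 2.0 to 53.0 and was called in neither comparison.

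Among the 3 tested receptors with a death domain, Tnfrsf1a and Fas were higher in PMN-MDSC and Tnfrsf21 was higher in M-MDSC. Tnfrsf1a, the TNF receptor that couples to the adaptor Tradd, had 2331, 2632 and 2179 in M-MDSC Ctrl and 8935, 7956 and 7857 in PMN-MDSC Ctrl. It differed by -1.79 ± 0.09 in Ctrl (limma adjusted p = 2.46e-10) and -1.66 ± 0.09 in LD (6.16e-10). Fas, the receptor of Fasl, had 170, 293 and 180 in M-MDSC Ctrl and 1059, 852 and 1049 in PMN-MDSC Ctrl. The Fas difference was -2.24 ± 0.19 in Ctrl (limma adjusted p = 6.69e-08) and -2.65 ± 0.19 in LD (1.08e-08). Fasl itself had no read in any of the 6 M-MDSC libraries, and 6 reads in PMN-MDSC Ctrl and 7 in PMN-MDSC LD, all 7 from LD 1. Tnfrsf21, a death domain receptor known in neural and lymphoid cells, had 2411, 2357 and 2398 in M-MDSC Ctrl and 1222, 1380 and 1413 in PMN-MDSC Ctrl. It differed by 0.84 ± 0.13 in Ctrl (limma adjusted p = 2.91e-05) and 0.47 ± 0.13 in LD (0.00348). Tnfrsf10b, the mouse TRAIL receptor with a death domain, lay below the minimum, with a mean of 8.92 over all libraries and values from 0.6 to 21.0.

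Of the 10 tested receptors that bind TRAF proteins and lack a death domain, 4 were higher in M-MDSC Ctrl and 3 in PMN-MDSC Ctrl. Tnfrsf1b, the second TNF receptor, had 10016, 12072 and 10187 in M-MDSC Ctrl and 6743, 6213 and 5668 in PMN-MDSC Ctrl. It differed by 0.79 ± 0.10 in Ctrl (limma adjusted p = 2.94e-06) and 1.43 ± 0.10 in LD (4.73e-09). Cd40, the receptor for T cell help, had 332, 334 and 353 in M-MDSC Ctrl and 33.7, 16.7 and 46.3 in PMN-MDSC Ctrl. The Cd40 difference was 3.47 ± 0.53 in Ctrl (limma adjusted p = 3.41e-05) and 4.59 ± 0.53 in LD (1.94e-06), where it moved to 5.21 without PMN-MDSC LD 1 and 3.84 without PMN-MDSC LD 3. Tnfrsf11a (RANK), known for osteoclast formation from monocytic precursors, had 207, 260 and 233 in M-MDSC Ctrl and 13.3, 1.8 and 28.7 in PMN-MDSC Ctrl. It differed by 4.47 ± 0.62 (limma adjusted p = 1.18e-05), 3.50 without PMN-MDSC Ctrl 2 and 5.22 without PMN-MDSC Ctrl 3, and by 5.61 ± 0.62 in LD, where M-MDSC had 300, 272 and 311 and PMN-MDSC 4.1, 4.4 and 7.0. Tnfrsf13b (TACI), a receptor for Tnfsf13b and Tnfsf13, had 223, 121 and 197 in M-MDSC Ctrl and 17.3, 5.3 and 4.8 in PMN-MDSC Ctrl. Its difference was 4.33 ± 0.51 (limma adjusted p = 2.49e-06) in Ctrl and 3.23 ± 0.51 in LD, from 115, 181 and 138 in M-MDSC and 27.1, 7.4 and 14 in PMN-MDSC. The ligand Tnfsf13b was thus higher in PMN-MDSC and this receptor higher in M-MDSC, while both had reads in every library. Summed plasma cell markers were also higher in M-MDSC, as given above, mostly through the transcription factors Irf4 (means of 736 and 32.5 in M-MDSC and PMN-MDSC Ctrl) and Prdm1 (246 and 77.7), while Fkbp11 was lower there (0.9 and 26.5). Igj, the joining chain of secreted antibodies, averaged 184 in M-MDSC Ctrl and 1.1 in M-MDSC LD, and Mzb1 4.1 and 0. Tnfrsf13b averaged 180 in M-MDSC Ctrl and 145 in M-MDSC LD. The part of plasma cell RNA in the Tnfrsf13b level was not tested.

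Ltbr, Tnfrsf4 and Tnfrsf18 were the TRAF-binding receptors higher in PMN-MDSC Ctrl. Ltbr, the lymphotoxin beta receptor, had 763, 793 and 747 in M-MDSC Ctrl and 1632, 1540 and 1521 in PMN-MDSC Ctrl. It differed by -1.03 ± 0.08 in Ctrl (limma adjusted p = 4.20e-08) and in LD (4.08e-08). Tnfrsf18 (GITR) and Tnfrsf4 (OX40), best known as costimulatory receptors of T cells and 9.55 kb apart on chromosome 4, were low in both populations. Tnfrsf18 had 0.6, 18.2 and 6.7 in M-MDSC Ctrl and 99.0, 87.9 and 39.9 in PMN-MDSC Ctrl, a difference of -3.51 ± 0.76 (limma adjusted p = 6.92e-04) that became -2.55 without M-MDSC Ctrl 1 and -4.32 without M-MDSC Ctrl 2. An antisense gene overlaps 25.5% of its exonic bases, and with strand not stated their reads cannot be told apart. Tnfrsf4 had 29.8, 3.8 and 26.9 against 58.1, 80.9 and 83, a difference of -2.20 ± 0.65 (limma adjusted p = 0.00655), -1.34 without M-MDSC Ctrl 2. In LD it was -1.26 ± 0.65 and not called (0.092). Some T cell markers were also higher in PMN-MDSC Ctrl. Cd3d, a chain of the T cell receptor complex, averaged 0.2 in M-MDSC Ctrl and 17.2 in PMN-MDSC Ctrl (limma adjusted p = 0.00131), and 2.4 and 68.5 in LD (1.91e-04). Cd3g had 1 read in all of M-MDSC Ctrl and 22 in PMN-MDSC Ctrl, and Cd3e 2 and 14. In LD, Cd3g had 3 reads in M-MDSC and 9 in PMN-MDSC, and Cd3e had 0 in both. From Ctrl to LD in PMN-MDSC, the mean of Tnfrsf4 went from 74.0 to 43.0 and that of Tnfrsf18 from 75.6 to 67.3, neither called. Cd2, which is not limited to T cells, went the other way with means of 80.1 and 8.9 in Ctrl, and the summed markers (13 genes) overlapped, at 77.5 to 166 in M-MDSC and 51.4 to 174 in PMN-MDSC libraries. The part of T cell RNA in the Tnfrsf18 and Tnfrsf4 levels was not tested. Tnfrsf8 (CD30), known on activated lymphocytes, had 31.8, 28.7 and 38.7 in M-MDSC Ctrl, and 43.5, 29.7 and 41.4 in M-MDSC LD against 1.4, 0 and 8.4 in PMN-MDSC LD. It was called in LD alone, at 3.78 ± 0.70 (limma adjusted p = 1.96e-04), 3.04 without PMN-MDSC LD 2 and 4.66 without PMN-MDSC LD 3. Tnfrsf14 (HVEM), the receptor of Tnfsf14, had similar means of 401 ± 19 and 460 ± 39 (SD, n = 3) and differed by less than the test could call. Tnfrsf12a was likewise not called, at means of 18.9 ± 7.0 and 10.5 ± 2.3 (SD, n = 3).

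The 3 tested receptors that were listed as decoys were all higher in PMN-MDSC Ctrl. Tnfrsf23, a decoy receptor for TRAIL, had 5.2, 28.7 and 23.0 in M-MDSC Ctrl and 401, 447 and 322 in PMN-MDSC Ctrl. It differed by -4.56 ± 0.48 (limma adjusted p = 6.54e-07) in Ctrl, -3.86 without M-MDSC Ctrl 1, and by -4.10 ± 0.48 in LD. Tnfrsf26 had 16.2, 11.5 and 16.3 against 56.1, 89.7 and 81.4 in Ctrl, a difference of -2.28 ± 0.42 (limma adjusted p = 1.87e-04) that was -2.22 ± 0.42 in LD. Tnfrsf22 had 2.6, 4.8 and 8.4 against 36.7, 17.6 and 35.1 in Ctrl, a difference of -2.34 ± 0.64 (limma adjusted p = 0.00419). In LD the Tnfrsf22 difference was -1.17 ± 0.64 and not called (0.11). The 3 genes form a cluster on chromosome 7, with gaps of 6.08 and 16.15 kb, and all 3 lay on the same side in Ctrl. Of the sequences of 50 bases in their exons, 27.4% of those of Tnfrsf22 and 19.3% of those of Tnfrsf23 occur elsewhere in the annotated transcripts, mostly in each other, so their shares of reads are uncertain. An antisense gene also overlaps 11.1% of the exonic bases of Tnfrsf23 and 3.33% of those of Tnfrsf26.

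**Figure D2:**
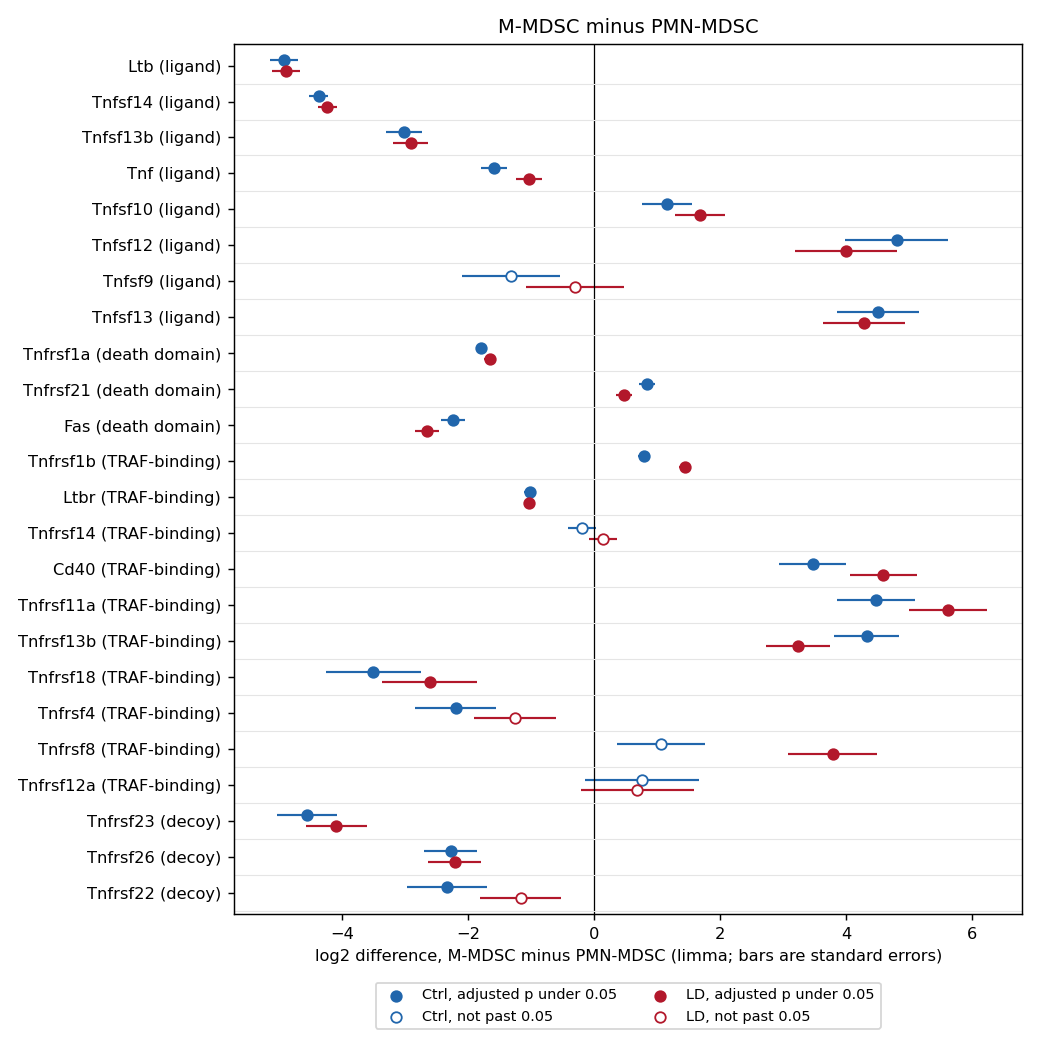
Log2 difference, M-MDSC minus PMN-MDSC, from limma for the 24 tested members, in Ctrl and in LD; bars are standard errors and filled points passed an adjusted p of 0.05. The 18 members called in both conditions lie on the same side of 0 in both, from -4.93 for Ltb to 5.61 for Tnfrsf11a.

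The order of the 2 TNF receptors was opposite in the populations. Per kb of exon, the ratio of Tnfrsf1b to Tnfrsf1a was 2.43, 2.59 and 2.64 in M-MDSC Ctrl and 2.77, 2.86 and 2.71 in M-MDSC LD. In PMN-MDSC it was 0.426, 0.441 and 0.407 in Ctrl and 0.343, 0.326 and 0.305 in LD. Every M-MDSC library therefore held more of Tnfrsf1b than of Tnfrsf1a, and every PMN-MDSC library less. The log2 ratio differed between populations by 2.59 in Ctrl and 3.10 in LD, and between LD and Ctrl by 0.12 in M-MDSC and -0.39 in PMN-MDSC. None of the 4 comparisons overlapped, and each gave p = 0.1 in a two-sided exact permutation test, 0.1 after adjustment over the 4, which is the smallest that 3 libraries against 3 can give.

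**Figure D3:**
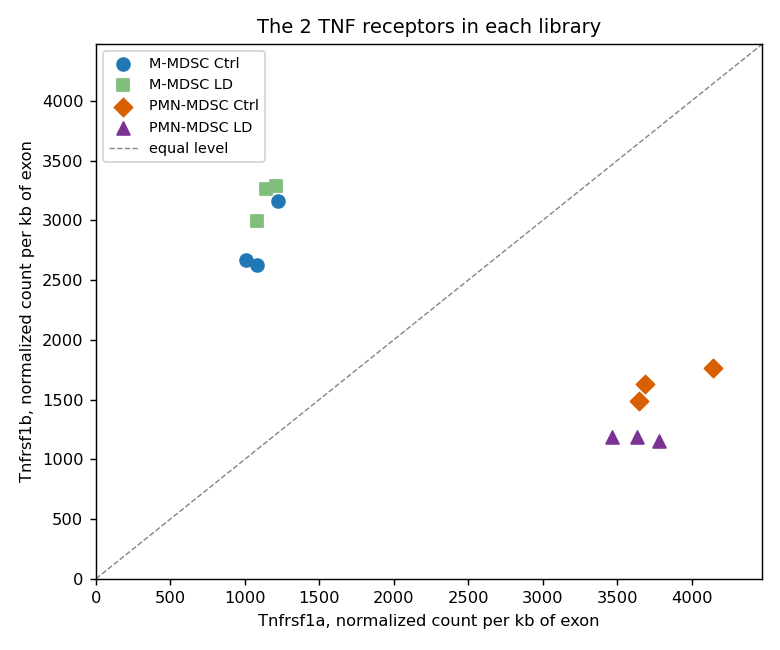
Level of Tnfrsf1b against that of Tnfrsf1a, both in normalized counts per kb of exon, with 1 point per library; the dashed line marks equal levels. The 6 M-MDSC libraries lie above the line and the 6 PMN-MDSC libraries below it, and the PMN-MDSC LD libraries lie lower on the Tnfrsf1b axis than the PMN-MDSC Ctrl libraries.

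The 17 members below the minimum were Cd27, Cd70, Eda2r, Fasl, Lta, Tnfrsf9, Tnfrsf10b, Tnfrsf11b, Tnfrsf13c, Tnfrsf17, Tnfrsf19, Tnfrsf25, Tnfsf4, Tnfsf8, Tnfsf11, Tnfsf15 and Tnfsf18. Most are known as lymphocyte or stromal genes of the family. Their highest value in any library was 37.7, for Tnfsf15 in M-MDSC LD 1. Tnfsf15, a ligand that acts on T cells and vessels, had 5.8, 1.0 and 7.9 in M-MDSC Ctrl and 37.7, 26.3 and 3.0 in M-MDSC LD, and 1 read in all 6 PMN-MDSC libraries. Tnfrsf17, the plasma cell receptor for Tnfsf13, averaged 9.0 ± 1.8 in M-MDSC Ctrl and 6.3 ± 6.3 in PMN-MDSC Ctrl (SD, n = 3). Just above the minimum lay Tnfrsf22, with a mean of 11.7. The number of members with a read was 37 in M-MDSC Ctrl, 33 in M-MDSC LD, 32 in PMN-MDSC Ctrl and 30 in PMN-MDSC LD, and depth was not equalised for these counts.

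Lymphodepletion in M-MDSC was followed by a rise of Tnf and by no other called change among the 24 tested members (4.17%). Over all genes 3.01% were called, 2.54% higher and 0.468% lower, so the share is near the background. The members' median change was 0.10, beside -0.04 over all genes, and 6 of the 24 members had groups that did not overlap, beside 23.1% of all genes tested. Tnf had 138, 138 and 103 in Ctrl and 315, 206 and 236 in LD, and every LD library lay above every Ctrl library. It rose by 0.98 ± 0.21 on the log2 scale (limma adjusted p = 0.0167). Without M-MDSC Ctrl 3 the change was 0.84 (adjusted p = 0.0846) and without M-MDSC LD 1 it was 0.81 (0.074), and the call was lost in both cases. Tnfsf13b had 30.5, 68.9 and 58.9 in Ctrl and 124, 74.7 and 103 in LD, without overlap. Its change of 0.97 ± 0.28 was of the same size but did not pass in limma (adjusted p = 0.0849), and passed in DESeq2 (0.018) and without M-MDSC LD 2 (0.049). The difference was 0.50 ± 0.22 for Ltb (limma adjusted p = 0.348) and -0.33 ± 0.15 for Tnfsf14 (0.366), and with Tnf and Tnfsf13b these were the 4 members at an unadjusted p under 0.05.

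Summed neutrophil markers shared a library order in M-MDSC LD with Tnf, Tnfsf13b and Ltb, and also with the receptors Fas and Tnfrsf23. The order of the libraries by summed neutrophil markers, LD 1 above LD 3 above LD 2, was also their order by these 3 ligands. Summed progenitor markers had that order too, at 7575, 1643 and 2120 in LD 1, 2 and 3. The neutrophil sum was mostly S100a9 (23934, 4031 and 8330) and S100a8 (9936, 1477 and 3309). Csf3r, Cxcr2 and Il1b had the same order, whereas Mmp9 (43.5, 47.6 and 210.8) and Retnlg (33.3, 17.8 and 51.2) did not. As a percentage of the mean of PMN-MDSC LD, neutrophil markers stood at 6.82, 1.67 and 2.81 in M-MDSC LD 1, 2 and 3. Tnf stood at 60.9, 39.9 and 45.5 and Tnfsf13b at 16.3, 9.86 and 13.6 on the same scale. Ltb stood at 4.04, 2.56 and 3.50. Fas, at 18.5, 13.2 and 16.3, and Tnfrsf23, at 7.50, 3.52 and 6.12, had the same order, although the mean of Fas was lower in M-MDSC LD (164.6) than in M-MDSC Ctrl (214.1). Tnfsf14, at 4.71, 4.57 and 6.64, and the receptor Tnfrsf1a, at 29.8, 31.5 and 33.4, did not follow that order. In M-MDSC Ctrl neutrophil markers were at 1.43 to 1.62 percent of PMN-MDSC Ctrl and Tnf at 26.9 to 35.9 percent. The marker percentages are those of the sum, and single markers differed. Cxcr2 averaged 56.6 in M-MDSC LD and 30074 in PMN-MDSC LD, and S100a8 averaged 4908 and 85207. Values of other marker lists lay apart as well. Summed monocyte markers were lower in every M-MDSC LD library than in every M-MDSC Ctrl library, with none of the 8 genes called. The drop was largest for Fn1 (means of 54595 in Ctrl and 32771 in LD), and Vcan, F13a1 and Ccr2 also had lower means in LD. Ly6c2 went the other way without overlap (means of 1559 and 2196), and Csf1r, Irf8 and Cx3cr1 had slightly higher means in LD. Of the 10 macrophage markers, C1qa (Ctrl mean 11.4 and LD mean 49.7, limma adjusted p = 0.0396), C1qc (19.3 and 59.6, 0.0402) and Vcam1 (27.1 and 99.8, 0.0451) rose. Emr1, which made up most of the sum, went the other way without overlap (means of 1987.5 in Ctrl and 1573.8 in LD). The summed list overlapped, at 1968 to 2268 in Ctrl and 1801 to 2145 in LD. The part of neutrophil, progenitor, monocyte or macrophage RNA in these changes was not tested.

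None of the 16 tested receptors was called in M-MDSC LD by limma, edgeR or DESeq2, and none had an unadjusted limma p under 0.05. Tnfrsf1b had 11428, 12469 and 12540 in LD, a change of 0.18 ± 0.10 (limma adjusted p = 0.475). Tnfrsf1a had 2333, 2465 and 2609 in LD, a difference of 0.06 ± 0.09 that lies within the spread. Fas had 191, 136 and 168 in LD, a change of -0.35 ± 0.19 (limma adjusted p = 0.498). Cd40 had 285, 276 and 217 in LD, all below the Ctrl values of 332 to 353, a change of -0.40 ± 0.53 (limma adjusted p = 0.885). The standard error of Cd40 is shared by the 4 groups, and with only the M-MDSC libraries in the fit its adjusted p was 0.153. Ltbr had 659, 707 and 712 in LD, again all below Ctrl, a difference of -0.15 ± 0.08 (limma adjusted p = 0.517). Tnfrsf14 had 422, 392 and 388 in Ctrl and 361, 558 and 721 in LD, a difference of 0.39 ± 0.22 (limma adjusted p = 0.518) with overlapping groups. Tnfrsf21 had 1828, 2374 and 1979 in LD (-0.22 ± 0.13). Tnfsf10 had 74.6, 140 and 64.0 in LD, a change of 0.62 ± 0.39.

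In PMN-MDSC, Tnfrsf1b, Tnfrsf8 and Tnfsf14 fell after lymphodepletion and no member rose in limma (3 of 24, 12.5%). Over all genes 15.7% were called, 7.17% higher and 8.51% lower, so the members' share is not above the background. Their median change was -0.10, beside -0.05 over all genes, and 8 of the 24 members had groups that did not overlap, beside 31.9% of all genes tested. Tnfrsf1b had 6743, 6213 and 5668 in Ctrl and 4541, 4530 and 4403 in LD. It fell by 0.46 ± 0.10 on the log2 scale (limma adjusted p = 0.00594), and all LD libraries lay below all Ctrl libraries. The call held in all 22 alternatives, with adjusted p up to 0.0245. Tnfrsf8 had 29.6, 10.5 and 11.2 in Ctrl and 1.4, 0 and 8.4 in LD, from 48 and 7 reads. It fell by 2.53 ± 0.70 (limma adjusted p = 0.0262). That change was -2.08 without PMN-MDSC Ctrl 1 (0.0934), -2.74 without PMN-MDSC Ctrl 3 (0.0548), -1.79 without PMN-MDSC LD 2 (0.0773) and -3.41 without PMN-MDSC LD 3. The call was also lost in edgeR (0.0545), with no minimum level (0.062) and with only the PMN-MDSC libraries in the fit (0.138). Tnfsf14 had 2533, 2483 and 2018 in Ctrl and 1676, 1669 and 1732 in LD, without overlap. It fell by 0.46 ± 0.15 (limma adjusted p = 0.0493), a value next to the threshold that was lost in 14 of 22 alternatives, with adjusted p up to 0.153. Among these were the fits without any 1 M-MDSC Ctrl library or any 1 PMN-MDSC library, in which the difference was -0.57 to -0.40. In M-MDSC, Tnfsf14 had 79.7, 77.3 and 112 in LD.

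The 2 receptors that fell are neighbours on chromosome 4, with Tnfrsf1b and Tnfrsf8 separated by 20.27 kb and both on the minus strand. The upstream windows of the 3 genes that fell are given because these genes moved in the same direction, with capitals as above. They are chr4:145246871-145247120 (minus strand) for Tnfrsf1b, chr4:145315165-145315414 (minus strand) for Tnfrsf8 and chr17:57194182-57194431 (minus strand) for Tnfsf14.
Tnfrsf1b: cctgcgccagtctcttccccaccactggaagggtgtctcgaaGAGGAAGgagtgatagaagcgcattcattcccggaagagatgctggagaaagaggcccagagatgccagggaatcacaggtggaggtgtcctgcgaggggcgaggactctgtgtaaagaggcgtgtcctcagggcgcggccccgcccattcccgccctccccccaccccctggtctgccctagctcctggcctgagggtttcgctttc
Tnfrsf8: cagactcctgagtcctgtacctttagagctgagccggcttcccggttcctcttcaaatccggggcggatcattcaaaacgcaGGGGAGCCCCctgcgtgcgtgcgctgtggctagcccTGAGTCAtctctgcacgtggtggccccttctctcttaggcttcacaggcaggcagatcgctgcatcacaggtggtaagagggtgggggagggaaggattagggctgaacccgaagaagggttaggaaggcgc
Tnfsf14: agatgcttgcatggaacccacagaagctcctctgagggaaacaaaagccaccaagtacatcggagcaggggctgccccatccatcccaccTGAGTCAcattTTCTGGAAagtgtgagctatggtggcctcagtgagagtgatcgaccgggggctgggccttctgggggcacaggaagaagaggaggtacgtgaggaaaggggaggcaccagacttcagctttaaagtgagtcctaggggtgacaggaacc
The Tnfrsf1b window holds a PU.1 match at base 208 before the start site. The Tnfrsf8 window holds an NF-kappaB match at 168 and an AP-1 match at 132. The Tnfsf14 window holds an AP-1 match at 160 and a C/EBP match at 149. No motif searched was present in all 3 windows.

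Other members were not called in PMN-MDSC, and for some of them the groups did not overlap. Tnfsf13b had 384, 354 and 520 in Ctrl and 618, 833 and 823 in LD, without overlap. The Tnfsf13b change of 0.86 ± 0.28 narrowly missed the threshold in limma (adjusted p = 0.0532) and passed in 11 of 22 alternatives, among them edgeR (0.035), DESeq2 (0.00975) and the fits without M-MDSC Ctrl 1 or 2, M-MDSC LD 1 or 2, or PMN-MDSC LD 1. Cd40 had 33.7, 16.7 and 46.3 in Ctrl and 24.3, 11.8 and 2.8 in LD, and these groups overlapped. Its change was -1.52 ± 0.53 (limma adjusted p = 0.0672). It was -2.14 without PMN-MDSC LD 1 (0.00693), -1.92 without PMN-MDSC Ctrl 2 (0.0489) and -0.77 without PMN-MDSC LD 3, and passed in DESeq2 (0.0255). Tnfrsf22 had 36.7, 17.6 and 35.1 in Ctrl and 6.8, 4.4 and 15.4 in LD, a change of -1.73 ± 0.64 (limma adjusted p = 0.0818). Tnf had 588, 406 and 558 in LD, of which LD 2 lay within the Ctrl range, a change of 0.43 ± 0.21 (limma adjusted p = 0.18). The Ltb difference was 0.46 ± 0.22 (limma adjusted p = 0.178), without overlap, and Ltbr, at 1415, 1347 and 1485 in LD, differed by -0.14 ± 0.08 (0.261), also without overlap. Tnfrsf1a had 7474, 7835 and 8147 in LD (-0.08 ± 0.09) and Fas had 1014, 971 and 1104 (0.07 ± 0.19), both within the spread. Tnfsf10 (0.10 ± 0.39) and Tnfrsf21 (0.14 ± 0.13; 1470, 1228 and 1773 in LD) were not called either. Summed neutrophil markers in PMN-MDSC were 389941 to 424968 in Ctrl and 531698 to 604953 in LD, but single markers went both ways. The means of S100a9 (97875 in Ctrl and 231759 in LD), S100a8 (36383 and 85207), Mmp9 and Retnlg were higher in LD. Those of Csf3r (160134 and 98751) and Il1b (33528 and 23553) were lower, both without overlap, and Cxcr2 was similar (29542 and 30074). Summed dendritic cell markers, mostly Itgax, were 5015 to 5573 and 2711 to 4036. The part of either list in these changes was not tested.

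Whether the 2 populations changed differently was asked by the difference of the LD changes, M-MDSC minus PMN-MDSC. Tnfrsf1b was the only one of the 24 members called (4.17%), beside 2.25% of all genes, 1.18% higher and 1.07% lower. Its changes of 0.18 in M-MDSC and -0.46 in PMN-MDSC differed by 0.64 ± 0.14 (limma adjusted p = 0.0274). edgeR (0.0168) and DESeq2 (5.71e-04) called it also. Leaving out 1 library at a time gave 0.58 to 0.73 and lost the call in 8 of 12 cases, with adjusted p up to 0.077. The cases that lost it were those without M-MDSC Ctrl 1 (0.59) or 3 (0.61), M-MDSC LD 2 (0.62) or 3 (0.62), PMN-MDSC Ctrl 1 (0.58) or 2 (0.64), and PMN-MDSC LD 2 (0.65) or 3 (0.63). For Tnf the difference was 0.56 ± 0.29 (limma adjusted p = 0.338), so the rise in M-MDSC was not shown to differ from the change in PMN-MDSC. For Tnfrsf8 it was 2.73 ± 0.99 (0.166), for Cd40 1.12 ± 0.75 (0.464) and for Tnfsf13b 0.11. The members' median was 0.24, beside 0.04 over all genes.

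**Figure D4:**
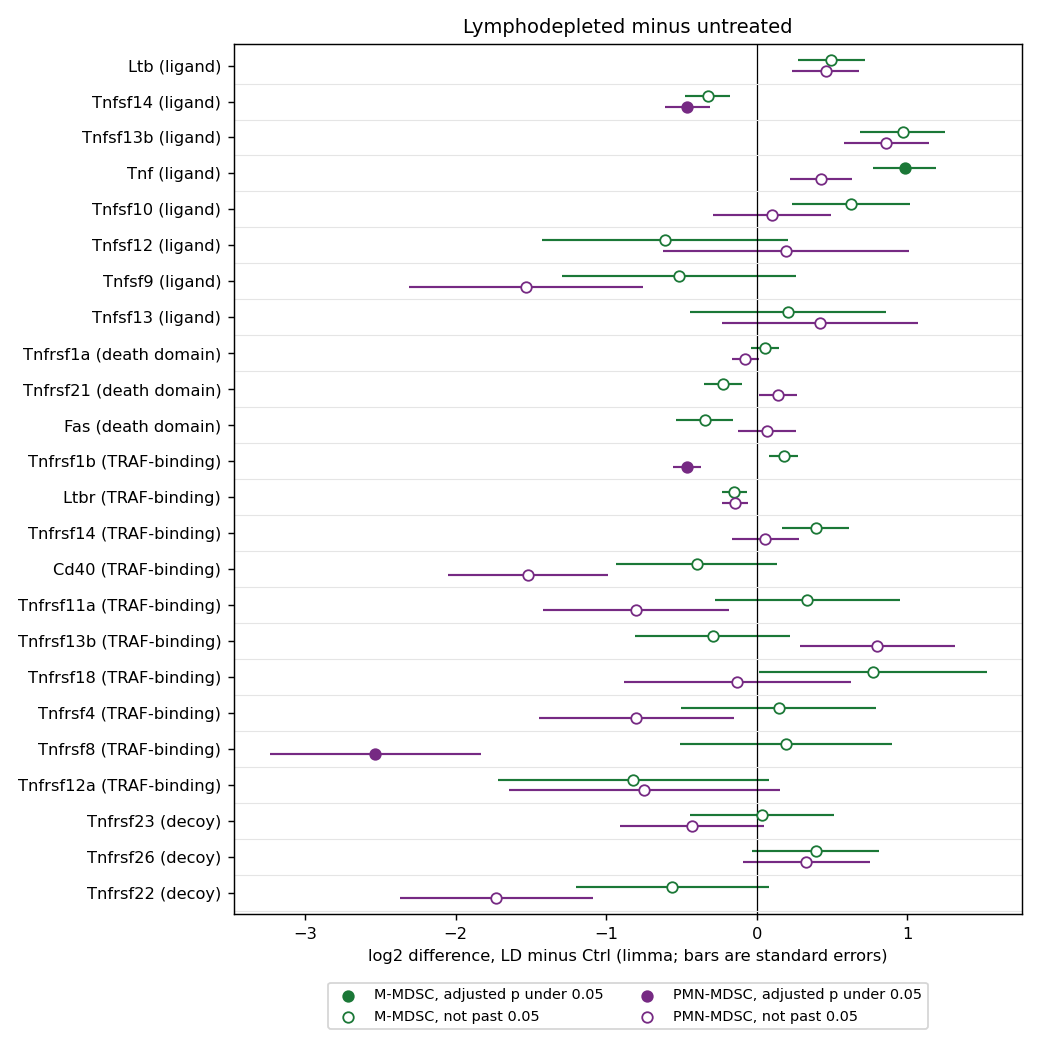
Log2 difference, LD minus Ctrl, from limma for the 24 tested members in each population; bars are standard errors and filled points passed an adjusted p of 0.05. Filled points are Tnf in M-MDSC (0.98) and Tnfrsf1b, Tnfrsf8 and Tnfsf14 in PMN-MDSC (-0.46, -2.53 and -0.46), and members with few reads have wide bars.

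**Figure D5:**
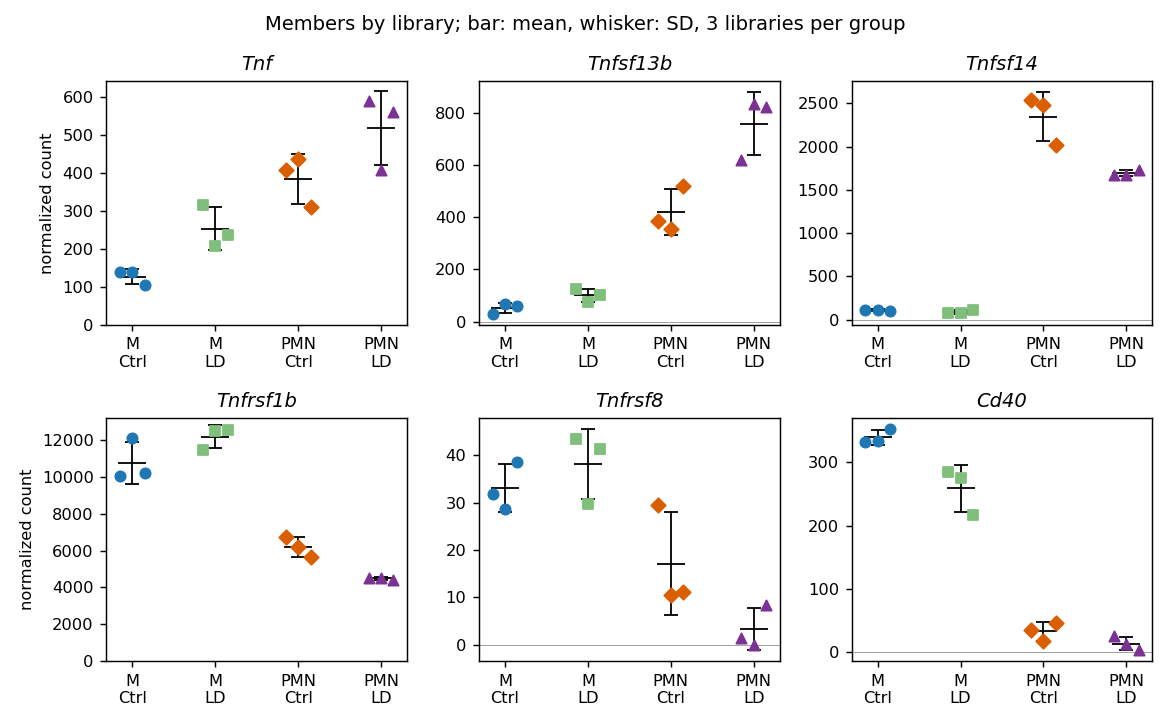
Normalized counts of 6 members in each library, with the mean as a bar and the SD as a whisker (3 libraries per group; M stands for M-MDSC and PMN for PMN-MDSC). Tnf is higher in all M-MDSC LD libraries than in M-MDSC Ctrl, and Tnfrsf1b and Tnfsf14 are lower in all PMN-MDSC LD libraries than in PMN-MDSC Ctrl.

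The proteins next to the receptors were followed with a list of 34 genes (adaptors, kinases, ubiquitin enzymes, caspase-8 and the shedding machinery), of which 33 were tested. In M-MDSC LD limma called 0 of the 33, edgeR 0 and DESeq2 1, Traf1, and 5 had an unadjusted limma p under 0.05: Tank, Tnfaip3, Tnip1, Traf1 and Traf5. Traf1, a TRAF protein whose gene is a known NF-kappaB target, had 102, 72.7 and 108 in Ctrl and 319, 166 and 168 in LD (1.15 ± 0.41, limma adjusted p = 0.186). Traf1, Tank, Tnfaip3, Tnip1 and Traf5 were named after their values were seen. In PMN-MDSC LD, 2 of the 33 rose and 2 fell (12.1%), which is not above the 15.7% of all genes called, 7.17% higher and 8.51% lower. Tank, an adaptor that binds TRAF proteins, had 707, 667 and 773 in Ctrl and 1016, 1162 and 1154 in LD and rose by 0.63 ± 0.12 (limma adjusted p = 0.00401). Mlkl, the effector of necroptosis, had 34.7, 29.9 and 41.5 in Ctrl and 64.9, 76.5 and 54.7 in LD and rose by 0.87 ± 0.22 (0.019). Birc3, a ubiquitin ligase of the TNF receptor complex, fell by 0.29 ± 0.09 (limma adjusted p = 0.0384), and Chuk, a kinase that activates NF-kappaB, fell by 0.33 ± 0.09 (0.0248). The median change of the list was -0.08 in M-MDSC and -0.03 in PMN-MDSC, beside -0.04 and -0.05 over all genes. No gene of the list was called for a difference of the LD changes by limma, edgeR or DESeq2, and 4 had an unadjusted limma p under 0.05: Casp8, Chuk, Rnf31 and Traf1.

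Between the populations, 27 of the 33 signalling genes differed in Ctrl, 12 toward M-MDSC and 15 toward PMN-MDSC, and 27 in LD, 11 and 16. The background was 75.6% of all genes in Ctrl and 74.8% in LD, and the list's 81.8% lies near it. Higher in M-MDSC Ctrl were Ikbkb, the main kinase of the canonical NF-kappaB route (1.77, limma adjusted p = 7.84e-10), Casp8, the caspase that death receptors activate (1.35), and the necroptosis genes Mlkl (2.61) and Ripk3 (2.13). Higher in PMN-MDSC Ctrl were Rhbdf2, which brings ADAM17 to the cell surface (-1.97, limma adjusted p = 1.02e-09), Rnf31 of the linear ubiquitin ligase (-1.54), Birc3 (-0.92) and Tab3 (-1.45). In LD all of these lay on the same side, with Ikbkb at 1.83 and Rhbdf2 at -1.81. The protease Adam17, named for its role and outside the naming rule, differed by 0.27 in Ctrl (limma adjusted p = 0.0138) and by 0.17 in LD, which was not called (0.0959). Of 6 family genes outside the rule, Relt and Edaradd were tested. Relt was higher in PMN-MDSC in both treatments (-1.71 in Ctrl and -1.47 in LD). Edaradd, the adaptor of the ectodysplasin receptor, had 9.7, 0 and 3.4 in M-MDSC Ctrl and 9.2, 17.6 and 23.9 in PMN-MDSC Ctrl, groups that overlapped. It was called in Ctrl by limma (adjusted p = 0.0341) but by neither edgeR nor DESeq2, and in LD by all 3 (limma adjusted p = 0.0148). Relt, a receptor of the family with an unrelated symbol, had means of 3141 ± 228 in PMN-MDSC Ctrl and 2336 ± 195 in PMN-MDSC LD (SD, n = 3) and fell by 0.43 ± 0.11 (limma adjusted p = 0.0151), while in M-MDSC it was not called.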

How the data were processed

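Deposited values were the normalized counts of 12 libraries, a signal that the authors made by dividing reads per gene by 1 size factor per library, as the steps between the values show; STAR 2.5.3a, HTSeq 0.6.1, DESeq2 and mm10 are listed, with no role, per the submitters' processing notes. Annotation and strandedness were not given in the sources used here. Whole reads were recovered for 100% of values, within 0.001 reads. Dividing by size factors leaves a gene's value dependent on its length, so levels of different genes were compared only per kb of exon (GENCODE M21, GRCm38).

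The 11122 of 23479 genes with a mean of at least 10 were fitted in limma 3.58.1 (R 4.3.3) on log2(normalized count + 1) of all 4 groups, with a mean-variance trend, 8 residual degrees of freedom, two-sided tests and Benjamini-Hochberg adjustment over all genes tested; the script was tested on simulated data. Alternatives were edgeR 4.0.16 and DESeq2 1.42.0 on the recovered reads, other pseudocounts, minimum levels and scalings, replicate blocks, only the groups compared, and each library left out. Leaving out both LD libraries numbered 1 was added after the data were seen. The members and lists were chosen with earlier results of these data known. All members past 0.05 were named, with Tnf, Tnfrsf1a, Tnfrsf1b, Fas, Fasl, Tnfsf10, Tnfrsf10b, Tnfsf13b and Cd40 in any case, those with the 8 smallest adjusted p per comparison were given by library, and up to 4 signalling genes per comparison and direction were named.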

Additional observations from a re-analysis of the deposited data

Results flagged for a closer look

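The change of Tnfrsf1b with lymphodepletion was called as different between the populations in the main fit. M-MDSC libraries had means of 10758 ± 1141 in Ctrl and 12146 ± 622 in LD, and PMN-MDSC libraries had 6208 ± 537 and 4491 ± 77 (SD, n = 3). The log2 changes were 0.18 and -0.46, and limma's test of their difference gave 0.64 ± 0.14 (adjusted p = 0.0274). With 1 library left out at a time, that call was lost in 8 of 12 limma fits (adjusted p up to 0.077). Groups of 3 libraries are too small for a search for outlying samples.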

How the results depend on the processing

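Between the populations, 39 results for single members were computed under up to 23 alternatives, 886 values in all. Of these 885 kept direction and call, and 1 lost its call (Tnfsf10 in Ctrl). TMM scaling moved the median of all genes between the populations from 0.06 to 0.16 in Ctrl and from 0.10 to 0.17 in LD. The treatment results moved more. The number of members called in M-MDSC (main value 1) was 2 in DESeq2 and without both LD libraries numbered 1, and 0 (without M-MDSC Ctrl 3 or LD 1) to 2 (without M-MDSC LD 2) when single libraries were left out. In PMN-MDSC (main value 3) it was 5 with a pseudocount of 8 and in DESeq2, 1 with no minimum level, and 1 (without PMN-MDSC Ctrl 1, Ctrl 3 or LD 2) to 4 with single libraries left out. For the difference of changes (main value 1) it was 0 to 1 with single libraries left out. Counts over all genes moved too. In M-MDSC (main value 335) they were 723 in DESeq2, 532 with only the groups compared, and 192 (without M-MDSC Ctrl 1) to 548 (without PMN-MDSC LD 1), with 199 and 217 without M-MDSC Ctrl 3 and LD 3. In PMN-MDSC (main value 1745) they were 889 (without PMN-MDSC Ctrl 3) to 2163 (without PMN-MDSC LD 1), with 1098 without PMN-MDSC Ctrl 2. For the difference of changes (main value 250) they were 699 in DESeq2, 125 with no minimum level, 767 without both LD libraries numbered 1, and 115 (without PMN-MDSC Ctrl 2) to 824 (without PMN-MDSC LD 1), and 115 to 154 without any 1 Ctrl library, M-MDSC LD 3, PMN-MDSC LD 2 or PMN-MDSC LD 3. That count was split 131 higher and 119 lower in limma, and 194 and 96 in edgeR. Signs turned for small changes that were not called. Tnfrsf1a in M-MDSC ran from -0.0061 (without M-MDSC Ctrl 3) to 0.13, Fas in PMN-MDSC from -0.0355 (without PMN-MDSC Ctrl 2) to 0.121, and Tnfsf10 in PMN-MDSC from -0.226 (without PMN-MDSC LD 2) to 0.366. The Tnfsf13b difference of changes was -0.237 without M-MDSC Ctrl 1, -0.0541 without M-MDSC LD 1, -0.0563 without PMN-MDSC Ctrl 3, -0.0312 without PMN-MDSC LD 1 and -0.194 without both LD libraries numbered 1, and at most 0.338 with a single library left out. The cause of these moves was not tested.

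Whether replicate numbers pair the libraries stayed undecided, and the main fit did not pair them. Deviations of same-numbered libraries correlated, across genes, between -0.102 and 0.208, and in no pair of groups were all 3 above 0.1; in LD all 3 numbers correlated best with their own number across populations. With the replicate number as a block, members called were 1, 2, 1, 20 and 19 in the 5 comparisons, and Tnfsf14 in PMN-MDSC lost its call (adjusted p = 0.0709). With a block for the presumed animal, the difference of changes was called for 536 genes. Low reads limit the members near the minimum, such as Tnfrsf8, Tnfrsf22 and Tnfsf12.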
